A study of Mus musculus with 8 samples.

Results

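Genes whose response to LAMZ differed between day 7 and day 14 were identified in mouse osteoblast progenitors. For each gene, the difference between LAMZ and control cells in log2(RPKM + 1) was computed on each day, and the day 7 value was subtracted from the day 14 value. RPKM divides the reads of a gene by its length and by the size of the library. Of 51822 gene symbols, 12514 reached an RPKM of 1 in 2 or more libraries and entered the test, and 78 were called at an adjusted p under 0.05 in limma, or 0.623% of the genes tested. A positive difference means that the LAMZ effect was higher at day 14 than at day 7, whichever side of the control it was on.

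There were 4 groups of 2 libraries each. Control cells received DMSO and treated cells received 1 μM LAMZ (locamidazole), an aminoindazole derivative, and each was harvested on day 7 or day 14 of culture. All groups were grown in α-MEM with serum, ascorbic acid, dexamethasone and β-glycerophosphate, an osteogenic medium, so every group was differentiating. The labels name MC3T3-E1 cells, an osteoblastic line from mouse calvaria, whereas the methods name calvarial cells, and neither says whether the 2 libraries of a group came from separate cultures. The p values therefore measure the spread between these libraries, which may be technical. By the schedule given for osteoblast cultures, LAMZ was last added on the day before the day 7 harvest and earlier than the day before the day 14 harvest, so day of culture and time since the last addition cannot be told apart.

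The libraries held 3456615 to 5829240 mapped reads, as recovered from the RPKM values. All 8 osteoblast markers checked (among them Col1a1, Alpl, Bglap and Sp7) were expressed, with a summed RPKM of 9536.0 to 19174.7 per library. Markers of macrophages, which a clonal osteoblastic line should lack, were also present in the control libraries. The summed RPKM of 10 such markers was 451 and 583 at day 7 and 1077.4 and 1129.4 at day 14 in control cells, and 6.97 to 8.98 in the 4 LAMZ libraries. Fewer cells of a type and less RNA per cell cannot be told apart in such bulk samples. Summed adipocyte markers reached 71.3 in replicate 2 of the day 14 control and lay between 0.470 and 11.0 in the other libraries, and none of them was called.

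Osteoblast progenitors in this medium proliferate, then lay down a collagenous matrix and later mineralize it, a programme that places a heavy demand on protein synthesis and secretion. ATF4 is a transcription factor whose translation rises when amino acids run short or when unfolded proteins accumulate in the endoplasmic reticulum. It induces enzymes of serine and asparagine synthesis, amino acid transporters and aminoacyl-tRNA synthetases, and it is required for normal osteoblast function. Unfolded proteins in the endoplasmic reticulum also induce the chaperones of that compartment, among them Hspa5 (BiP).

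Of the 78 genes, 39 had a higher LAMZ effect at day 14 (0.312% of genes tested) and 39 a lower effect (0.312%). The differences ranged from 1.04 to 5.24 (median 1.46) among the former and from −3.15 to −1.0 (median −1.45) among the latter, against a median of −0.071 over all genes tested. The LAMZ effect itself was called in 12.8% of the genes tested at day 7 and 23.0% at day 14. The change from day 7 to day 14 was called in 4.86% in control cells and 14.4% in LAMZ cells. These contrasts share libraries with the difference between days and are not independent of it. In all 78 genes, the 4 library-by-library differences between LAMZ and control at day 14 lay on one side of the 4 at day 7, as they did in 33.3% of all genes tested. The number of calls depended on each of the 8 libraries. It fell to 21 without replicate 1 and 3 without replicate 2 of the day 7 control, to 2 and 1 without replicate 1 and 2 of day 7 LAMZ, to 5 and 0 without replicate 1 and 2 of the day 14 control, and to 2 without either replicate of day 14 LAMZ. The 78 differences kept their sign in each of these fits, which the non-overlap above fixes in advance. Fits without the mean-variance trend, with a replicate block or with another filter leave each difference unchanged. Only the pseudocounts and scalings could have reversed a sign, and none did. All but 1 of the alternatives tested all 78 genes, and the stricter filter of an RPKM of 5 tested 70. Centring each library on its median gave 69 genes with a higher and 41 with a lower effect.

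The genes were grouped by the day on which the LAMZ effect was itself called. In 38 genes the effect appeared, being called at day 14 only, and in 26 of these it was higher at day 14. In 13 genes it faded, being called at day 7 only. In 14 genes it reversed, being called on both days with opposite signs. In the other 13 it widened, with the same sign on both days and a larger size at day 14, and no called gene narrowed. The plot of the LAMZ effect at day 14 against that at day 7 shows these groups.

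**Figure D1:**
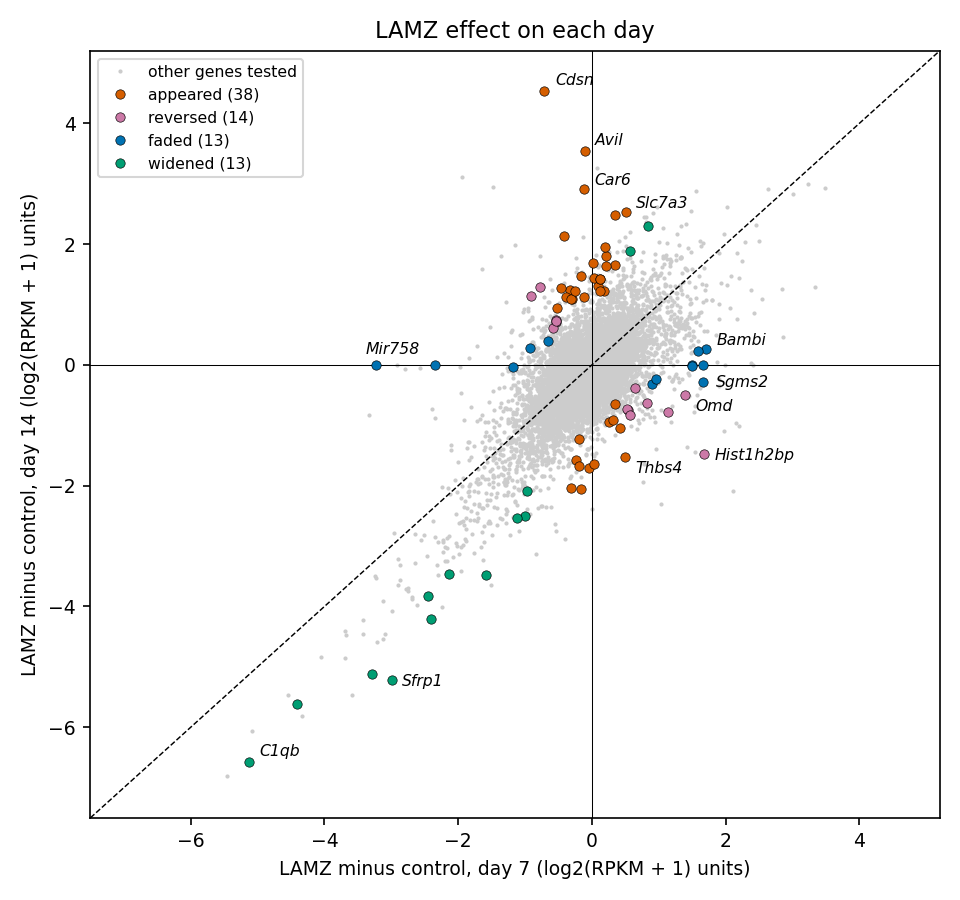
LAMZ minus control in log2(RPKM + 1) at day 7 (horizontal) and day 14 (vertical); each point is a gene, grey for genes that were not called and coloured by class for the 78 called genes, and the dashed line marks equal effects. Cdsn and Avil lie far above the line, with day 7 effects of −0.71 and −0.11, while C1qb and Sfrp1 lie below it with negative effects on both days.

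The difference between days equals the change from day 7 to day 14 in LAMZ cells minus that in control cells, so each gene was assigned to the arm that moved at least 2 times as far. In 49 of the 78 genes the change came from the LAMZ cells, in 15 from the control cells and in 14 from both. The LAMZ cells accounted for 31 of the 39 genes with a higher effect and for 18 of the 39 with a lower effect. The group mean farthest from the other 3 was that of day 14 LAMZ in 47 genes, day 14 control in 13, day 7 LAMZ in 10 and day 7 control in 8. No such shares over all genes tested are given here. Over all genes tested, the change between days was also called more often in LAMZ cells, in 14.4% against 4.86% in control cells. The excess on the LAMZ side is therefore not read as particular to the 78 genes.

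**Figure D2:**
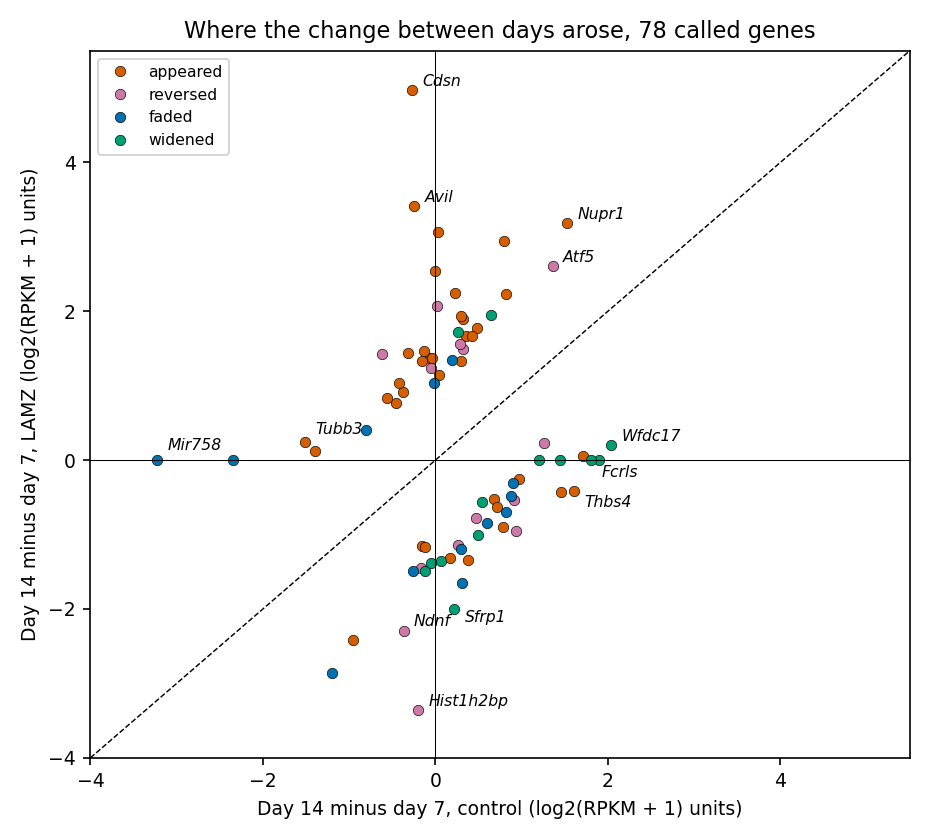
Change from day 7 to day 14 in control cells (horizontal) and LAMZ cells (vertical) for the 78 called genes, in log2(RPKM + 1) and coloured by class; the dashed line marks equal changes. Points near the vertical axis, such as Cdsn and Avil, moved in LAMZ cells, and points near the horizontal axis, such as Fcrls and Wfdc17, moved in control cells.

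Genes of ATF4 and amino acid stress formed the group with the most calls among the gene lists examined. Of 29 listed genes that were tested, 6 were called, each with a higher effect at day 14, against 0.312% of all genes tested. A difference above 0 was found in 28 of the 29, against 5373 of 12514 over all genes tested. The median difference was 1.04, against −0.071 over all genes tested. The median LAMZ effect was 0.38 at day 7 and 1.30 at day 14, and 7 of the 29 were called higher in LAMZ cells at day 7 and 27 at day 14, against 4.35% and 6.96% of all genes tested. The change was on the side of the LAMZ cells, with a median of 1.34 from day 7 to day 14, against 0.30 in control cells. The list was written with earlier results of these data known. Rescaling of the libraries to the same sum, to the same median or by quantiles gave medians of 0.98 to 1.12. Leaving out any 1 library gave medians of 0.96 to 1.10. The calls were less stable than the medians. The listed genes called numbered 3 at a pseudocount of 0.1 and 14 at a pseudocount of 5. They numbered 2 without the mean-variance trend, 1 with a replicate block across all groups and 0 with a block within each day. Without the filter on low values the number was 0. Fewer listed genes were also called whichever library was left out.

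Atf4 itself had an RPKM of 57.1 and 55.3 in day 7 control, 64.3 and 63.7 in day 7 LAMZ, 68.9 and 69.3 in day 14 control, and 170.0 and 157 in day 14 LAMZ. Only the day 14 LAMZ libraries were high, and they did not overlap the other 6. Its difference between days was 1.04 (SE 0.15, adjusted p = 0.0369), from a LAMZ effect of 0.19 at day 7 and 1.23 at day 14. Atf4 was singled out after its value was seen.

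Nupr1 encodes a small stress-induced nuclear protein. Its RPKM was 9.28 and 10.6 in day 7 control, 10.4 and 9.70 in day 7 LAMZ, 29.0 and 31.8 in day 14 control, and 104 and 95.7 in day 14 LAMZ. It rose with time in both arms, by 1.52 in control cells and 3.19 in LAMZ cells, so the day 7 groups overlapped and the day 14 groups did not. The difference was 1.67 (SE 0.17, adjusted p = 0.0216) and lay between 1.58 and 1.75 when any 1 library was left out.

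Of the 6 listed genes called for the difference, Asns, which makes asparagine, also had a LAMZ effect called at day 7. Its RPKM was 8.24 and 8.13 in day 7 control, 13.7 and 11.7 in day 7 LAMZ, 13.8 and 13.0 in day 14 control, and 56.8 and 47.6 in day 14 LAMZ. The LAMZ effect widened from 0.57 to 1.88, a difference of 1.31 (SE 0.19, adjusted p = 0.0369). Phgdh, the enzyme that commits a glycolytic intermediate to serine synthesis, had 20.9 and 19.4 in day 7 control, 21.5 and 25.7 in day 7 LAMZ, 15.7 and 21.4 in day 14 control, and 69.5 and 63.4 in day 14 LAMZ. Its day 7 libraries lay close together, and only day 14 LAMZ stood above the rest. The difference was 1.59 (SE 0.23, adjusted p = 0.0369). Wars, the tryptophanyl-tRNA synthetase, rose in the same libraries, from 8.64 and 10.1 in day 14 control to 25.6 and 21.0 in day 14 LAMZ, with a difference of 1.48 (SE 0.20, adjusted p = 0.0355).

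Slc7a3, a transporter of cationic amino acids, was close to absent outside day 14 LAMZ. It had 166 and 107 reads (RPKM 7.52 and 5.79) there and 0 to 13 reads in the other 6 libraries, and its difference was 2.02 (SE 0.29, adjusted p = 0.0369). The value of the difference rests on the pseudocount of 1 where RPKM is this low. Of the other listed members, Ddit3 (CHOP) had a large difference that missed the threshold, 2.01 (SE 0.36, adjusted p = 0.0602), with an RPKM of 60.1 and 47.1 in day 14 LAMZ against 14.8 and 15.0 in day 14 control. Trib3 and Cth had differences of 1.59 and 1.76 that also missed it (adjusted p = 0.166 and 0.131). Chac1 and Vldlr had LAMZ effects of like size on both days, 1.35 and 1.51 for Chac1 and 1.34 and 1.23 for Vldlr, and their differences of 0.17 and −0.10 did not pass the test.

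Outside the list, 8 called genes are known ATF4 or endoplasmic reticulum stress genes or handle the same amino acids, and were picked out after their values were seen. Slc6a9, a glycine transporter, had an RPKM of 1.55 and 1.01 in day 7 control, 2.28 and 1.49 in day 7 LAMZ, 3.33 and 2.58 in day 14 control, and 22.3 and 19.7 in day 14 LAMZ. Both day 14 LAMZ libraries were far above the rest, and the difference was 2.14 (SE 0.27, adjusted p = 0.0287). Eif4ebp1, an inhibitor of cap-dependent translation, had 14.9 and 13.9, 18.0 and 19.0, 18.7 and 18.8, and 63.9 and 58.6 in the same order of groups. Its difference was 1.31 (SE 0.15, adjusted p = 0.0257). Herpud1, a component of endoplasmic reticulum-associated degradation, and Got1, the cytosolic aspartate aminotransferase, had differences of 1.29 and 1.09. Cyb5r1 and Stard5 had a difference of 1.41 each, and all 4 of these genes were highest in day 14 LAMZ.

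Atf5 and Slc1a5 moved across the control level. Atf5, a transcription factor related to ATF4, had an RPKM of 20.4 and 17.4 in day 7 control, 12.7 and 12.5 in day 7 LAMZ, 52.8 and 46.9 in day 14 control, and 77.0 and 87.0 in day 14 LAMZ. LAMZ cells were thus lower at day 7 and higher at day 14, with no overlap on either day. The LAMZ effect went from −0.54 to 0.71 (difference 1.25, SE 0.18, adjusted p = 0.0369), and both arms rose with time. Slc1a5, the main glutamine importer, had 15.6 and 14.2, 9.72 and 10.0, 17.6 and 19.1, and 32.8 and 29.5 in the same order. Its effect went from −0.54 to 0.73, and here the change came from the LAMZ cells, which rose by 1.56, against 0.29 in control cells.

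Of 23 heat shock and chaperone genes tested, Hspa5 and Hyou1 were called with a higher effect, against 0.312% of all genes tested. Differences above 0 numbered 19 of 23 and their median was 0.27, against 5373 of 12514 and −0.071 over all genes. With either replicate block, without the mean-variance trend, without the filter on low values or at a pseudocount of 0.1, no listed gene was called. At a pseudocount of 5, 2 were. Leaving out any 1 library gave list medians of 0.17 to 0.53 and fewer calls. Hspa5 had an RPKM of 104 and 96.7 in day 7 control, 114 and 118 in day 7 LAMZ, 90.9 and 103 in day 14 control, and 346 and 263 in day 14 LAMZ. The day 14 LAMZ libraries were highest and differed from each other more than those of any other group. The difference was 1.43 (SE 0.21, adjusted p = 0.0369). Hyou1, a co-chaperone of Hspa5, had 13.2 and 16.9 in day 14 control and 43.9 and 39.1 in day 14 LAMZ (difference 1.30, SE 0.20, adjusted p = 0.0447). The other 21 did not pass the test, among them Pdia4 (0.72) and Hsp90b1 (0.27) of the endoplasmic reticulum and Hspa1b (0.86), Hspa1a (0.43), Hspa8 (0.16) and Hsp90aa1 (−0.03) of the cytosol.

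**Figure D3:**
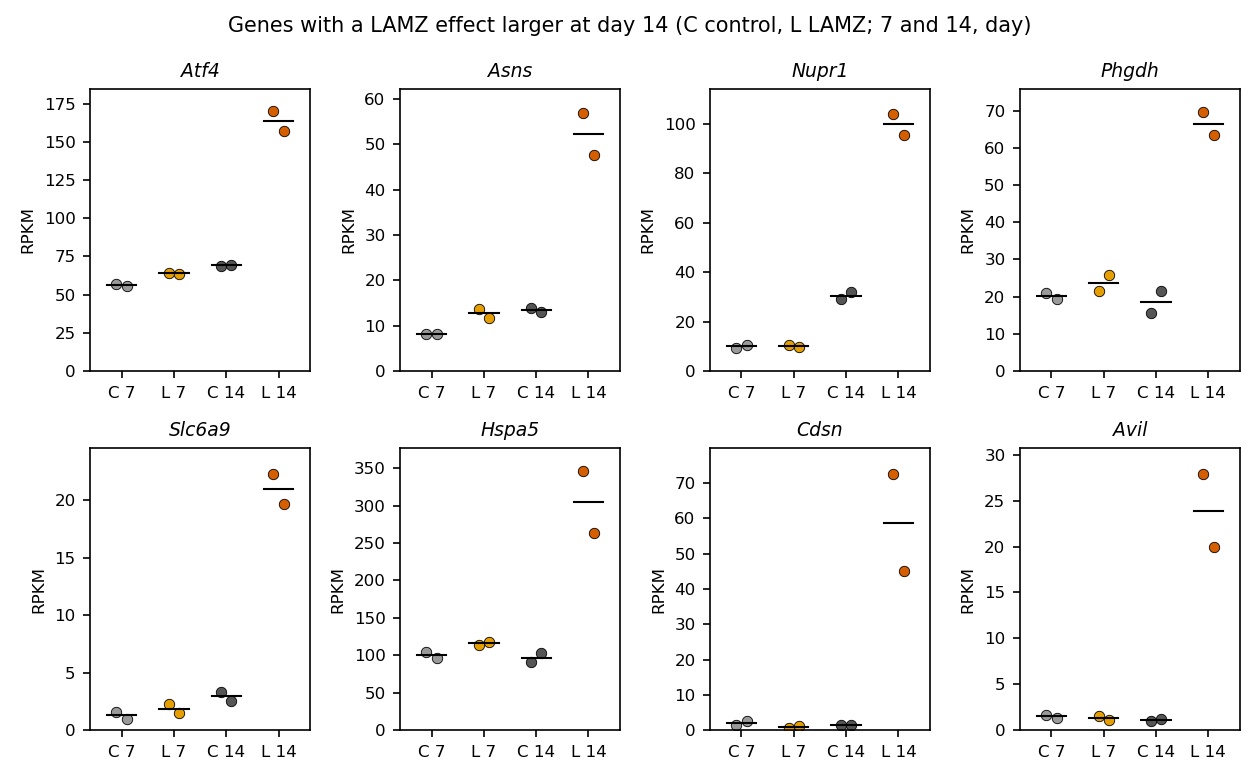
RPKM of 8 genes in each library (points) with the mean of the 2 libraries (bar); C is control, L is LAMZ, and 7 and 14 are the days. In each panel the 2 day 14 LAMZ libraries lie above the other 6.

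The upstream sequences of these genes were examined for TGATGNAA on either strand (N being any base), the core of the composite element at which ATF4 and C/EBP proteins are known to bind together. RefSeq windows (GRCm38.p6) of the 250 bases before the gene start were found for 24 of the 39 genes with a higher effect, 24 of the 39 with a lower effect and 9039 of the 12514 genes tested. The motif was present in 6 of 24 (25.0%), 1 of 24 (4.17%) and 208 of 9039 (2.30%) respectively, and in 8 of the 23 listed ATF4 genes with a window (34.8%). As windows were found for fewer than 80% of each set, the shares describe these genes and not the sets. A gene with several annotated starts was counted if any of its windows held the motif, so such genes had more chances of a match. A match is a description and not a binding site. The 6 genes with a higher effect that hold it were Asns, Avil, Got1, Herpud1, Nupr1 and Tubb3. Asns and Nupr1 are also members of the ATF4 list, so the motif and that list are not separate lines of support. A stretch of 100 bases around the match in each of the 6 genes is given 5′ to 3′ on the strand of the gene. The match is in capitals.
Nupr1 (chr7:126625521-126625620, minus strand): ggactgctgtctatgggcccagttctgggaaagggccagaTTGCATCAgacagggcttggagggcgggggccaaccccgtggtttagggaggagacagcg
Asns (chr6:7693210-7693309, minus strand): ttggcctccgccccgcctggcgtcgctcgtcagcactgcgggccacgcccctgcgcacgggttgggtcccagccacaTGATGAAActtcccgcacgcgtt
Herpud1 (chr8:94386277-94386376, plus strand): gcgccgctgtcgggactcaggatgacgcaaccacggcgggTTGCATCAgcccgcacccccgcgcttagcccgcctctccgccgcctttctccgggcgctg
Got1 (chr19:43524648-43524747, minus strand): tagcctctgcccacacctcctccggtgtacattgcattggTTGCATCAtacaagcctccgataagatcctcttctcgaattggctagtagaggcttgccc
Avil (chr10:127000609-127000708, plus strand): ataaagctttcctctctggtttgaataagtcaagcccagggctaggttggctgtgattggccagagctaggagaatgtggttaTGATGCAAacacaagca
Tubb3 (chr8:123411451-123411550, plus strand): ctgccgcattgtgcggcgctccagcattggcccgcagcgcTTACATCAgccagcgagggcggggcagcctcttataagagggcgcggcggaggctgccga

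In Nupr1, Herpud1 and Got1 the same 8 letters stood 110, 112 and 102 bases before the gene start, counted from the upstream end of the match. In Asns and Avil the match was on the strand of the gene, 23 and 17 bases before the start, and in Tubb3 it stood 62 bases before it. The 1 gene with a lower effect that held the motif was Sgms2, in only 1 of its several windows, 233 bases before that start.

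**Figure D4:**
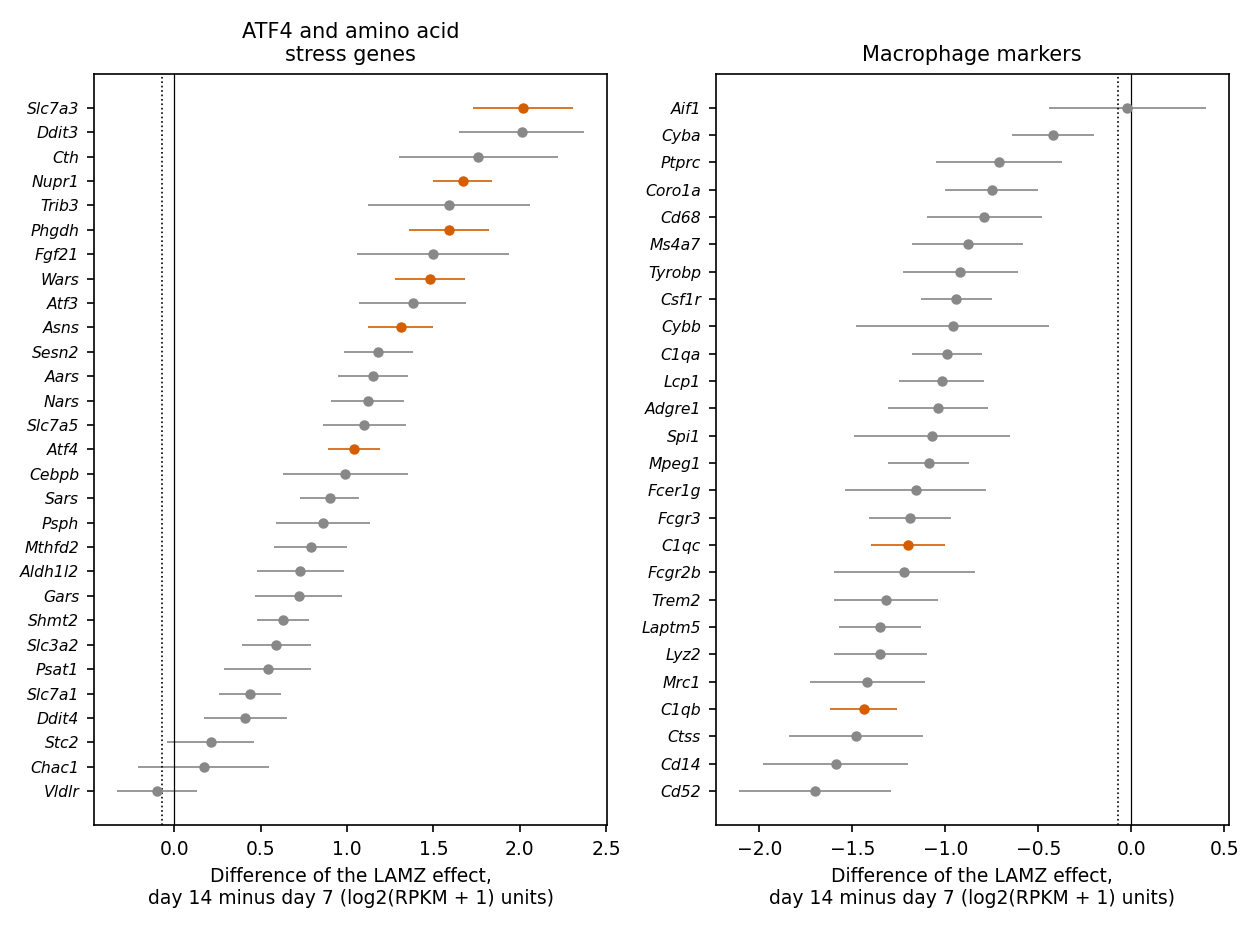
Difference of the LAMZ effect between days with its standard error for the tested members of the ATF4 and amino acid stress list (29 genes) and of the macrophage list (26 genes); orange marks called genes, the solid line 0 and the dotted line the median of all genes tested. All ATF4 members but Vldlr lie above 0, and all macrophage markers lie below it.

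The 2 differences of largest size were in Cdsn and Avil, which are known from other tissues and had low values in all but the day 14 LAMZ libraries. Cdsn (chr17:35552128-35557180, plus strand, GRCm38) encodes corneodesmosin, an adhesion protein of the outer epidermis. Its RPKM was 1.58 and 2.59 in day 7 control, 0.613 and 1.15 in day 7 LAMZ, 1.46 and 1.57 in day 14 control, and 72.5 and 45.2 in day 14 LAMZ, where it had 1131 and 590 reads. The difference was 5.24 (SE 0.36, adjusted p = 0.00587), between 4.91 and 5.58 with any 1 library left out. The epidermal keratin markers Krt5 and Krt14 with Trp63 summed to an RPKM of 0.310 to 1.79 in every library, and of 5 epidermal genes tested Cdsn was the called member.

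Avil (chr10:127000709-127020994, plus strand, GRCm38) encodes advillin, an actin-binding protein of the villin family known from sensory neurons. It had 1.64 and 1.36, 1.59 and 1.07, 0.986 and 1.24, and 27.9 and 19.9 in the same order of groups. The difference was 3.65 (SE 0.27, adjusted p = 0.00587) and lay between 3.42 and 3.89 with any 1 library left out. Avil overlaps Tsfm on the other strand, and the strand setting of the counting is not given in the sources used here. Markers of Schwann cells summed to an RPKM of at most 0.974. Car6, a secreted carbonic anhydrase, had 96 and 59 reads in day 14 LAMZ and 0 to 3 in each other library (difference 3.04, SE 0.36, adjusted p = 0.0258). Gpr84, a receptor for medium-chain fatty acids, had 47 and 42 reads there and 0 to 3 elsewhere (difference 2.55, SE 0.30, adjusted p = 0.0257).

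Other genes with an effect that appeared at day 14 included Pdgfb, a growth factor subunit, whose RPKM was 0.395 to 1.15 in the other 6 libraries and 4.23 and 4.77 in day 14 LAMZ (difference 1.64, SE 0.24, adjusted p = 0.0369). Nes (nestin), an intermediate filament protein of progenitors, had 2.23 and 2.65 in day 14 control and 6.25 and 6.77 in day 14 LAMZ (difference 1.25). Fam20c, the kinase that phosphorylates secreted proteins of mineralized tissue, had 5.02 and 5.13 in day 7 control, 3.72 and 3.91 in day 7 LAMZ, 7.23 and 6.02 in day 14 control, and 14.5 and 19.8 in day 14 LAMZ (difference 1.57, SE 0.23, adjusted p = 0.0369). Cdh3 (P-cadherin), Hid1 and the non-coding Gm16314 also appeared, with differences of 1.21 to 1.75. Slpi, a secreted inhibitor of serine proteases, widened from 0.84 to 2.30, with 59.7 and 56.4 in day 14 LAMZ against 10.7 and 11.2 in its control.

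Tubb3, a tubulin of neurons, differed in origin from these genes. Its RPKM was 5.25 and 5.41 in day 7 control, 5.27 and 7.40 in day 7 LAMZ, 1.40 and 1.07 in day 14 control, and 7.25 and 7.89 in day 14 LAMZ. The day 14 control libraries were the ones that stood apart, below the other 6. Control cells fell by 1.51 while LAMZ cells changed by 0.24, and the difference was 1.75 (SE 0.23, adjusted p = 0.0324). The small Cajal body RNA Gm23119 followed the same course, falling by 1.39 in control cells, with 16 to 45 reads per library.

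Among the 12 genes with a lower effect that appeared at day 14, several encode secreted or matrix proteins that rose in control cells. Thbs4 (thrombospondin 4), of tendon and muscle matrix, had 2.98 and 3.07 in day 7 control, 4.70 and 4.67 in day 7 LAMZ, 12.3 and 10.3 in day 14 control, and 3.65 and 2.93 in day 14 LAMZ. Only the day 14 control was high. Control cells rose by 1.60, LAMZ cells changed by −0.41, and the difference was −2.02 (SE 0.19, adjusted p = 0.0198). Scg2 (secretogranin) and Cilp (a cartilage intermediate layer protein) had the same form, with control changes of 1.46 and 1.71, LAMZ changes of −0.43 and 0.05, and differences of −1.88 and −1.66. Lrrn4cl was the other gene of this kind (−1.22). Cyp26b1, which degrades retinoic acid, moved in opposite directions in the arms, from 11.3 and 10.0 to 19.0 and 18.9 in control cells and from 9.90 and 11.9 to 5.80 and 4.98 in LAMZ cells (difference −1.67, SE 0.19, adjusted p = 0.0257). Anpep, a cell-surface aminopeptidase, and Chrdl1, a secreted BMP antagonist, moved likewise (−1.20 and −1.34).

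Sfrp1 and Sfrp2, secreted antagonists of Wnt signalling, fell from day 7 to day 14 in LAMZ cells. Wnt signalling drives osteoblast differentiation. Sfrp1 had 111 and 78.7 in day 7 control, 9.92 and 11.9 in day 7 LAMZ, 111 and 107 in day 14 control, and 1.65 and 2.30 in day 14 LAMZ. Control cells stayed at about the same level while the LAMZ libraries, already low at day 7, were lower at day 14. The LAMZ effect widened from −3.0 to −5.22 (difference −2.22, SE 0.27, adjusted p = 0.0268). Sfrp2 had 124 and 144, 94.9 and 122, 172 and 177, and 37.0 and 47.1 in the same order. Its effect was −0.31 at day 7, where it was not called, and −2.04 at day 14 (difference −1.73, SE 0.24, adjusted p = 0.0369). Of 31 Wnt pathway genes tested, these 2 were called, against 0.312% of all genes tested called with a lower effect. Differences above 0 numbered 8 of 31, against 5373 of 12514 over all genes tested, and the list median was −0.48.

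Matrix and secreted genes that widened in LAMZ cells were Col14a1, a fibril-associated collagen, Egfl6, Vegfd and C1qtnf2. Col14a1 had 36.7 and 35.4 in day 7 control, 15.2 and 16.8 in day 7 LAMZ, 37.6 and 37.9 in day 14 control, and 5.87 and 5.46 in day 14 LAMZ (difference −1.41, SE 0.15, adjusted p = 0.0243). The 4 control libraries were alike, and LAMZ cells fell by 1.35. Egfl6 had 14.2 and 14.1 in day 7 LAMZ and 4.63 and 4.17 in day 14 LAMZ, and Vegfd had 6.33 and 8.29 and then 2.14 and 2.21, against controls of 71.9 to 93.7 and 33.0 to 37.6. Their differences were −1.37 and −1.33. Cyp1b1 widened from −0.98 to −2.08, with a change of −0.57 in LAMZ cells and of 0.54 in control cells, the latter not past the threshold. Of 33 collagen genes tested, Col14a1 was the called member. Differences above 0 numbered 17 of 33, against 5373 of 12514 over all genes tested.

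Rnase4, Robo2 and Ano6 fell in LAMZ cells between the days while control cells changed by 0.17, −0.13 and −0.16. Rnase4, a secreted ribonuclease, had 58.3 and 64.6 in day 7 LAMZ and 25.9 and 22.5 in day 14 LAMZ (difference −1.48, SE 0.20, adjusted p = 0.0369). It overlaps Ang on the same strand, so reads of the 2 genes may be split. Robo2, a receptor for Slit guidance cues, had 6.29 and 6.46 and then 2.13 and 2.43 (difference −1.04), and Ano6, a phospholipid scramblase, had a difference of −1.0.

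Of 26 macrophage markers tested, 26 had a difference below 0, with a median of −1.08. Over all 12514 genes tested, 5373 differences were above 0, the median was −0.071 and 0.312% were called with a lower effect. Among the markers 2, C1qb and C1qc, which encode subunits of complement C1q, were called and widened. Neither was called without any 1 library or with a replicate block. The median change from day 7 to day 14 was 1.14 in control cells and 0 in LAMZ cells. With libraries centred on their medians, 1 of the 26 was above 0. C1qb had 30.7 and 37.7 in day 7 control, 91.2 and 97.4 in day 14 control, and 0 in all 4 LAMZ libraries (difference −1.44, SE 0.18, adjusted p = 0.0287). C1qc had 18.4 and 22.4 and then 51.8 and 44.2, with 0 in LAMZ cells (−1.20). Of the genes outside the list, Clec4n, Fcrls and Wfdc17, which are known from myeloid cells, had the same form. Their control changes were 1.89, 1.80 and 2.03, with at most 1 read in a LAMZ library. These genes were picked out after their values were seen. Gpr84, a called receptor gene also found in myeloid cells, went the other way, with a difference of 2.55. Where LAMZ libraries are at 0 the fitted value depends on the pseudocount, no fold can be given, and the difference restates the rise in control cells. Groups at 0 also add no spread to the fit. Lyz2, the most abundant of these markers, had 312 and 409, 8.20 and 6.27, 695 and 789, and 5.99 and 5.29 in the usual order (difference −1.35, adjusted p = 0.0606).

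**Figure D5:**
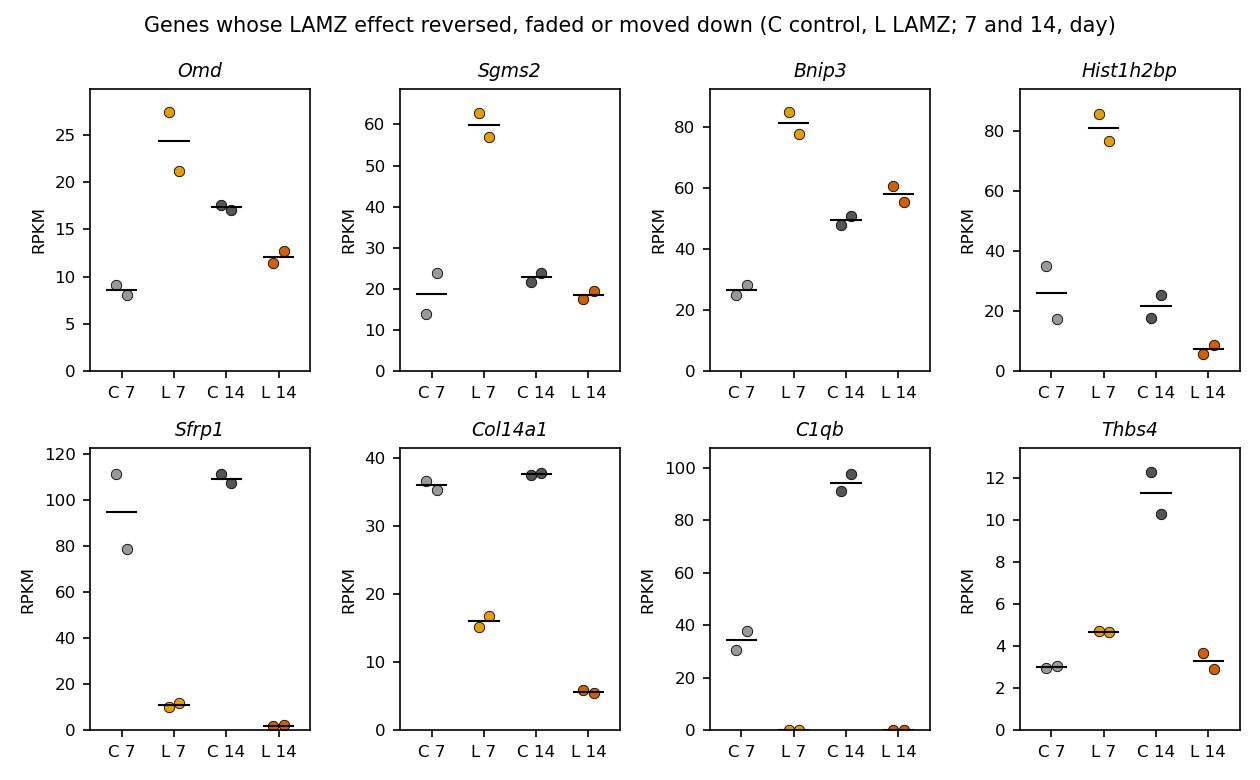
RPKM of 8 genes in each library (points) with the mean of the 2 libraries (bar); C is control, L is LAMZ, and 7 and 14 are the days. Omd and Hist1h2bp cross the control level between the days, Sgms2 and Bnip3 are high in day 7 LAMZ, Sfrp1 and Col14a1 fall in LAMZ cells, and C1qb and Thbs4 rise in control cells.

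The 14 reversed genes, selected for opposite signs, kept them on the 2 days under every alternative in which they were tested. The class itself was less stable. It held for 11 at a pseudocount of 5, 7 at a pseudocount of 0.1 and 7 with libraries centred on their medians. With an RPKM of at least 5 it held for all 12 tested. It held for 2 without the mean-variance trend, 1 with either replicate block and 0 without the filter on low values. Hist1h2bp, a replication-dependent histone gene, had 34.9 and 17.2 in day 7 control, 85.4 and 76.4 in day 7 LAMZ, 17.7 and 25.4 in day 14 control, and 5.59 and 8.70 in day 14 LAMZ. LAMZ cells were above the control at day 7 and below it at day 14. The effect went from 1.68 to −1.47 (difference −3.15, SE 0.46, adjusted p = 0.0369), through a fall of the LAMZ cells, and the difference was −3.64 to −2.66 with any 1 library left out. Hist1h3i reversed as well (0.53 to −0.75), and Hist1h2bf was called at day 14 only (difference −1.46). Histone genes of this family are near copies of each other, so reads may be split among them. Of 63 tested, 3 were called, against 0.312% of all genes tested called with a lower effect. Differences above 0 numbered 17 of 63, against 5373 of 12514 over all genes tested, and the list median was −0.32. None of the 44 cell cycle genes tested was called in limma (9 had an unadjusted p under 0.05, each with a lower effect, against 10.4% of all genes tested), and their median was −0.36.

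Omd (osteomodulin), a proteoglycan of mineralized matrix that binds collagen, had 9.08 and 8.09 in day 7 control, 27.5 and 21.2 in day 7 LAMZ, 17.6 and 17.1 in day 14 control, and 11.4 and 12.7 in day 14 LAMZ. Control cells rose by 0.94 and LAMZ cells changed by −0.95, so the arms crossed. The effect went from 1.39 to −0.50 (difference −1.89, SE 0.21, adjusted p = 0.0243). Of 28 bone matrix and mineralization genes tested, Omd was the called member. The LAMZ effect over that list had a median of 0.89 at day 7 and 0.73 at day 14, against −0.080 and −0.15 over all genes tested. Of the 28, 16 were called higher at day 7 and 15 at day 14, against 4.35% and 6.96% of all genes tested. Differences above 0 numbered 13 of 28, against 5373 of 12514 over all genes tested.

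Ndnf, a secreted glycoprotein, had 5.11 and 5.14, 12.8 and 12.3, 3.19 and 4.37, and 1.92 and 1.62 in the same order (difference −1.92, SE 0.21, adjusted p = 0.0243). The change came from the LAMZ cells, which fell by 2.29. Plod2, which hydroxylates collagen lysines, and Stk17b, a kinase, reversed in the same direction (differences −1.25 and −1.40), as did Polr2k, a shared RNA polymerase subunit, and Slc6a6, the taurine transporter (−1.44 and −1.03). Slc6a6 was the reversed gene whose change came from the control, with 27.5 and 28.6 at day 7 and 69.4 and 67.7 at day 14, against 43.5 to 53.5 in the 4 LAMZ libraries.

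In the opposite direction, from below the control at day 7 to above it at day 14, 6 genes reversed. Besides Atf5 and Slc1a5 they were Ier2, an immediate early gene, Nfu1, a mitochondrial iron-sulfur cluster protein, Mt2, a metallothionein, and 0610009L18Rik, a non-coding RNA. Ier2 had 6.97 and 6.26 in day 7 control, 3.70 and 4.54 in day 7 LAMZ, 8.69 and 8.28 in day 14 control, and 13.6 and 13.2 in day 14 LAMZ (difference 1.18, SE 0.18, adjusted p = 0.0369). Nfu1 went from −0.54 to 0.74. Mt2 and 0610009L18Rik each had a difference of 2.05 but rest on few reads, 0 to 13 for Mt2 and 1 to 11 for 0610009L18Rik per library.

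Of the 13 faded genes, 8 had been higher and 5 lower in LAMZ cells at day 7. Sgms2, a sphingomyelin synthase whose mutations cause a skeletal dysplasia, had 13.8 and 23.8 in day 7 control, 62.9 and 56.9 in day 7 LAMZ, 21.6 and 23.9 in day 14 control, and 17.4 and 19.5 in day 14 LAMZ. The day 7 LAMZ libraries alone were high. The effect went from 1.67 to −0.29 (difference −1.96, SE 0.32, adjusted p = 0.0476), and the difference was −2.33 to −1.58 with any 1 library left out. Apln, the ligand of the apelin receptor, had 10.1 and 11.5 in day 7 LAMZ and 2.75 to 4.71 in the other 6 libraries (difference −1.50, SE 0.23, adjusted p = 0.0396).

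Bnip3, a hypoxia-inducible regulator of mitophagy, had 24.8 and 28.2 in day 7 control, 84.9 and 77.7 in day 7 LAMZ, 47.9 and 50.7 in day 14 control, and 60.6 and 55.4 in day 14 LAMZ. Control cells rose by 0.87 and LAMZ cells changed by −0.48, so the arms came together. The effect went from 1.58 to 0.23 (difference −1.35, SE 0.17, adjusted p = 0.0287). Bnip3 was the called member of 24 glycolysis and hypoxia genes, of which 20 were called higher in LAMZ cells at day 7 and 12 at day 14, against 4.35% and 6.96% of all genes tested. In 2 of the 24 the difference was above 0, and the median was −0.50, against 5373 of 12514 and −0.071 over all genes tested. Pfkfb3, an activator of glycolysis, and Egln3, an oxygen sensor, had differences of −1.43 and −1.46 that missed the threshold (adjusted p = 0.0805 and 0.0828).

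Bambi, a decoy receptor of the TGF-beta family, had 3.0 and 3.95 in day 7 control, 14.2 and 13.0 in day 7 LAMZ, 5.28 and 6.23 in day 14 control, and 6.70 and 7.48 in day 14 LAMZ (difference −1.45, SE 0.21, adjusted p = 0.0369). LAMZ cells fell by 0.85, and the control change of 0.60 did not pass the test. Prelid2, Pxylp1 and Tmtc1 also lost a positive effect, with differences of −1.52, −1.22 and −1.20. Timp3, an inhibitor of matrix metalloproteinases, lost a negative effect. It had 72.1 and 61.5 in day 7 control, 28.1 and 29.4 in day 7 LAMZ, 73.6 and 79.5 in day 14 control, and 81.1 and 68.6 in day 14 LAMZ, so that only day 7 LAMZ was low (difference 1.15, SE 0.19, adjusted p = 0.0496). Dok1 and D030056L22Rik lost a negative effect likewise (1.06 and 1.21).

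The other 3 faded entries were barely detected. Mir758, the annotated precursor of a microRNA, had 3 and 2 reads in day 7 control and 0 in the other 6 libraries, and its difference of 3.23 (SE 0.30, adjusted p = 0.0198) rests on those reads. The antisense transcript Gm43791 had 8 and 6 reads in day 7 control and 0 elsewhere (difference 2.35). Gm24826_1 had an RPKM of 5.45 and 7.14 in day 7 LAMZ, 1.23 and 1.34 in day 7 control and 0 at day 14 (difference −1.66). No fold is given for these entries, because groups with no reads add no spread.

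None of 82 nuclear-encoded respiratory chain genes, 78 mitochondrial ribosomal protein genes and 13 mitochondrial DNA protein genes was called in limma. At an unadjusted p under 0.05, the first of these lists had 7 genes with a higher and 5 with a lower effect, the next had 13 and 1, and the last had none, against 6.06% of all genes tested with a higher and 10.4% with a lower effect. The median differences were −0.050, 0.11 and −0.23. Of 14 regulators of the PGC-1 and MEF2 kind, none was called and 1 had an unadjusted p under 0.05. It was Mef2c, with 4.29 and 5.25, 16.8 and 13.7, 6.80 and 8.33, and 13.4 and 13.9 in the same order of groups. Its LAMZ effect was 1.49 at day 7 and 0.78 at day 14 (difference −0.71, SE 0.22, adjusted p = 0.172).

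Among 84 cytosolic ribosomal protein genes, none was called and 10 had an unadjusted p under 0.05, each with a higher effect, as 6.06% of all genes tested did. Their median difference was 0.25, with 66 of 84 above 0, against −0.071 and 5373 of 12514 over all genes tested. With LAMZ, 19 of 84 were called higher at day 7 and 53 at day 14, against 4.35% and 6.96% of all genes tested. Levels on a single day depended more on scaling than the differences between days did. Rescaling the libraries to the same sum moved the median LAMZ effect of all genes from −0.080 to −0.313 at day 7 and from −0.147 to −0.430 at day 14, and the median difference between days from −0.071 to −0.126.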

How the data were processed

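RNA was sequenced from 8 libraries of mouse osteoblast progenitors, 2 in each of 4 groups that the labels define. The authors sequenced them on an Ion Proton, assigned reads to genes in CLC Genomics Workbench (version not given in the sources used here) and deposited the RPKM of each gene symbol; mm10 is the build in the submitters' processing notes. Scaling is within each library. From each library, 4 entries with duplicated symbols were dropped. Mapped reads were recovered by scaling low RPKM values of genes with 1 exon until they gave whole reads within 0.05 (93.97% to 96.23% of values), with gene lengths and positions from GENCODE M21 (GRCm38), which matched 12167 of the tested symbols. Reads are not independent molecules.

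log2(RPKM + 1) was fitted in limma 3.58.1 (R 4.3.3; lmFit, then eBayes with trend = TRUE) as 4 groups, without covariates, which leaves 4 residual degrees of freedom. Tests were two-sided, with Benjamini-Hochberg adjustment over all 12514 genes.

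The question, the gene lists and the classes were chosen with earlier results of these data known. By rule, named genes were the 12 largest differences in each direction, the 4 largest of each class and direction, and up to 4 called members of each list (or the member of smallest p); the other called genes are named to account for the 78, except 1 that is counted but not reported here. Alternatives were pseudocounts of 0.1 and 5, filters, scalings, no trend, replicate blocks and leaving out each library. Same-numbered replicates did not deviate together (r = −0.0166 at day 7 and 0.0158 at day 14).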

Additional observations from a re-analysis of the deposited data

Results flagged for a closer look

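Each of 53 named genes had a LAMZ effect that differed between day 7 and day 14 by limma's test of the difference itself, with the difference between days given in parentheses on the log2(RPKM + 1) scale. The LAMZ effect appeared and was higher at day 14 in Cdsn (5.24), Avil (3.65), Car6 (3.04), Gpr84 (2.55), Slc6a9 (2.14), Slc7a3 (2.02), Tubb3 (1.75), Gm16314 (1.75), Nupr1 (1.67), Pdgfb (1.64), Phgdh (1.59), Wars (1.48), Hspa5 (1.43), Hyou1 (1.30) and Nes (1.25). It appeared and was lower in Thbs4 (−2.02), Scg2 (−1.88), Sfrp2 (−1.73), Cyp26b1 (−1.67), Hist1h2bf (−1.46), Chrdl1 (−1.34) and Robo2 (−1.04). The effect reversed from negative to positive in 0610009L18Rik (2.05), Mt2 (2.05), Nfu1 (1.28), Slc1a5 (1.28) and Ier2 (1.18). It reversed from positive to negative in Hist1h2bp (−3.15), Ndnf (−1.92), Omd (−1.89), Polr2k (−1.44), Hist1h3i (−1.28) and Plod2 (−1.25). A negative effect faded in Mir758 (3.23), Gm43791 (2.35), D030056L22Rik (1.21) and Timp3 (1.15). A positive effect faded in Sgms2 (−1.96), Gm24826_1 (−1.66), Prelid2 (−1.52), Apln (−1.50), Bambi (−1.45) and Bnip3 (−1.35). A positive effect widened in Slpi (1.46) and Asns (1.31). A negative effect widened in Sfrp1 (−2.22), Clec4n (−1.89), Wfdc17 (−1.83), Fcrls (−1.80), C1qb (−1.44), Col14a1 (−1.41), Vegfd (−1.33) and C1qc (−1.20). In C1qb, C1qc, Clec4n, Fcrls, Gm43791 and Mir758 all 4 LAMZ libraries were at 0, so the value restates the change in control cells on this scale.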

How the results depend on the processing

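Over 18 alternatives, the 53 named genes that were called kept their direction in all 947 values, of which 338 passed the threshold and 609 did not. For these genes only the pseudocounts and scalings could have reversed a direction. Their non-overlapping library differences fix it when a library is left out, and the filters, blocks and trend leave the difference unchanged. Of 497 values of named genes that were not called, none reversed and 20 passed the threshold. Of the 78 called genes, 60 were called in none of the 8 fits without 1 library, which have fewer degrees of freedom. Leaving out a library gave 0 to 21 called genes, with 0 to 7 higher, 0 to 14 lower, 0 to 5 reversed, 0 to 8 appeared, 0 to 4 faded and 0 to 4 widened. A pseudocount of 0.1 gave 34 genes (15 higher, 19 lower; 8 reversed, 16 appeared, 3 faded, 7 widened), and a pseudocount of 5 gave 166 (79 higher, 87 lower; 83 appeared, 20 faded, 43 widened). With no filter, 0 of 29944 genes were called in limma in either direction or any class, and 2931 had an unadjusted p under 0.05. An RPKM of at least 5 in 2 libraries left 6502 genes with 133 called (76 lower; 25 reversed, 61 appeared, 26 widened). Scaling to the same sum gave 60 lower and 31 widened genes, centring on the median 69 higher and 62 appeared, and quantile normalization 61 higher and 62 appeared. With no mean-variance trend, 30 genes were called (17 higher, 13 lower; 3 reversed, 15 appeared, 5 faded, 7 widened). The cause of these shifts was not tested.

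The replicate numbers are shared by all groups, and the labels do not say whether they pair the libraries. Deviations of same-numbered replicates from their group means had r of −0.0342 to 0.0776 between groups. These low values do not settle whether the libraries were paired. A replicate block across all groups left 17 called genes (7 higher, 10 lower; 3 reversed, 9 appeared, 2 faded, 3 widened), of which 15 were among the 78. A replicate block within each day left 7 (4 higher, 3 lower; 3 reversed, 4 appeared, 0 faded, 0 widened). Depth limits the values of genes with few reads, such as Mir758, Gm43791, Mt2 and 0610009L18Rik.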
